A study of Mus musculus with 4 samples.

Results

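The cytosolic ribosomal protein genes were taken as every gene whose symbol is that of a protein of the large (Rpl, Rplp) or small (Rps, Rpsa) ribosomal subunit, with the S6 kinase genes left out. The rule used symbols alone and found 84 of the 18492 genes listed in any library, 51 named for the large subunit and 33 for the small subunit. Of these, 77 are canonical ribosomal protein genes, 46 large and 31 small, and 7 are paralogs or related genes (Rpl3l, Rpl7l1, Rpl10l, Rpl22l1, Rpl39l, Rps27l and Rps4y2). Hippocampal RNA of 6-month-old C57BL/6 mice was sequenced in 4 libraries, 1 per genotype. The genotypes were Ogg1-/- (Ogg1 KO), Mutyh-/- (Mutyh KO), Ogg1-/- Mutyh-/- (DKO) and wild type (WT). The product of Ogg1 cuts 8-oxoguanine, an oxidised base, out of DNA, and that of Mutyh cuts out adenine placed opposite it. Whether an RNA sample came from 1 animal or a pool, and the animals' sex, were not stated.

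A cytosolic ribosome consists of a small subunit, which reads the mRNA, and a large subunit, which forms the peptide bonds, and most canonical proteins are present in it in equal numbers. Their mRNAs are among the most abundant in most cells, neurons included, where some are also carried into dendrites and axons. Most of them begin with a C followed by a run of pyrimidines, the TOP motif (terminal oligopyrimidine), through which mTORC1 signalling controls how well they are translated.

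The start of each gene is shown because this motif is the feature the family is known for. RefSeq promoter sequences on GRCm38.p6, from 250 bases before to 50 bases after the annotated start, were matched for 63 of the 84 members. They are given only as sequence, since the deposited tables hold no coordinates. Unbroken runs of at least 5 pyrimidines were searched that cover the annotated start or begin within 5 bases of it. A run was counted only where its first base was C. It was found in 19 of the 63 members (30.2%), against 15.7% of all 27025 genes in the table. An unbroken run whose first base was T was left out, even with a C at the annotated start, as in Rpl38 below. These shares are therefore not counts of TOP motifs. The runs counted were 5 to 20 bases long in the members, with a median of 10. The windows of 4 members with long runs are given from 35 bases before the annotated start to 25 bases from it on, 5′ to 3′, with the run in capitals.
Rpl27a (chr7:109519160-109519219, plus strand): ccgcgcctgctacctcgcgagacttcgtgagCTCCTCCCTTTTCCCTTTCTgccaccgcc
Rpl34 (chr3:130730313-130730372, minus strand): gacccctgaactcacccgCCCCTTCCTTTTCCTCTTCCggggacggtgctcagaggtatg
Rpl35 (chr2:39005107-39005166, minus strand): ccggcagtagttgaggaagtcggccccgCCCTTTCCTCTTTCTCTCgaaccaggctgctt
Rpl15 (chr14:18270962-18271021, minus strand): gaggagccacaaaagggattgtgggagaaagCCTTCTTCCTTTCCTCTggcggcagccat
The annotated start is the base after the first 35, so that the run in Rpl27a began 4 bases before it and the run in Rpl34 began 17 bases before it.

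Other promoter motifs were searched on both strands over all 300 bases. CCGGAAG, the core bound by ETS-family factors, was in 41.3% of the members and 9.93% of all genes, and GGGCGG, a GC box, in 61.9% and 38.2%. AAGATGG, the core of a YY1 motif, was in 15.9% of the members and 7.28% of all genes, while TATAAA was in 11.1% of the members and 15.7% of all genes. A match is a run of letters and not a binding site. The same 60-base windows are given for members whose values are described below, with CCGGAAG or its reverse complement in capitals where it falls in the window.
Rps28 (chr17:33824538-33824597, minus strand): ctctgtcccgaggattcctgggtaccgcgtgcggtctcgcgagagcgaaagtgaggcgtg
Rpl38 (chr11:114668545-114668604, plus strand): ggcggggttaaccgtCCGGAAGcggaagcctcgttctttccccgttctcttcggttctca
Rpl11 (chr4:136053369-136053428, minus strand): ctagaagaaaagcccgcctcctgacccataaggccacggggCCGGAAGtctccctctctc
Rps21 (chr2:180257344-180257403, plus strand): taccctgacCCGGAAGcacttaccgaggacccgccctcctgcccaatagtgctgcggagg
Rpsa (chr9:120127731-120127790, plus strand): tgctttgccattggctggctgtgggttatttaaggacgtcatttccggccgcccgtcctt
CCGGAAG was found within the 300 bases of Rpl38, Rpl11, Rps21 and Rpsa, though in Rpsa outside the window printed, and these letters were not in those of Rps28.

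The 4 libraries held 17.0 M to 18.2 M (mega) unique reads in genes, and 13186 genes with a mean of at least 1 RPKM (reads scaled by gene length and library total) were compared. Ogg1 had 130 reads in the library labelled Ogg1 KO, 81 in Mutyh KO, 103 in the library labelled DKO and 94 in WT. This total goes against both labels, while the covered part of the gene's length separated the same libraries, at 47.2%, 81.5%, 46.4% and 86.7% in the same order, and every direction below for the libraries labelled Ogg1 KO and DKO rests on their labels. Mutyh had 35, 15, 20 and 39 reads in that order, so the libraries labelled as lacking it had the fewest. Xist, the RNA of X inactivation, had 10307 reads in Mutyh KO and 14 to 29 in each other library. All 13 hippocampal neuron markers were listed in each library, at a summed 10621 to 11537 RPM (reads per 1 M of the library total). Markers of choroid plexus, the epithelium that makes cerebrospinal fluid, had all 12 genes listed and none at 0, and had their lowest sum in WT.

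Ribosomal protein mRNAs were abundant in every library. Of the 84 members, 52 averaged at least 100 RPKM, 25 averaged 10 to 100 RPKM and 4 averaged 1 to 10 RPKM. The other 3, the paralogs Rpl3l, Rpl39l and Rpl10l, averaged under 1 RPKM and were not compared, which left 81 members, 48 large and 33 small. The highest by mean RPKM were Rplp1, a stalk protein that helps recruit translation factors, Rpl41, one of the smallest ribosomal proteins, Rps15, a protein of the head of the small subunit, and Rpl23a and Rpl3 of the large subunit. Rplp1 had 483.7 RPKM in the library labelled Ogg1 KO, 459.7 in Mutyh KO, 448.1 in the library labelled DKO and 520.5 in WT. It was highest in WT, as were 22 of the 81 members, whereas 50 were highest in the library labelled Ogg1 KO, 4 in Mutyh KO and 5 in the library labelled DKO. The lowest of the 4 values lay in the library labelled Ogg1 KO for 12 members, in Mutyh KO for 28, in the library labelled DKO for 27 and in WT for 14. These ranks were not counted over all compared genes. In the library labelled Ogg1 KO, 52 of the 81 members and 7199 of the 13186 compared genes were higher than in WT.

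**Figure D1:**
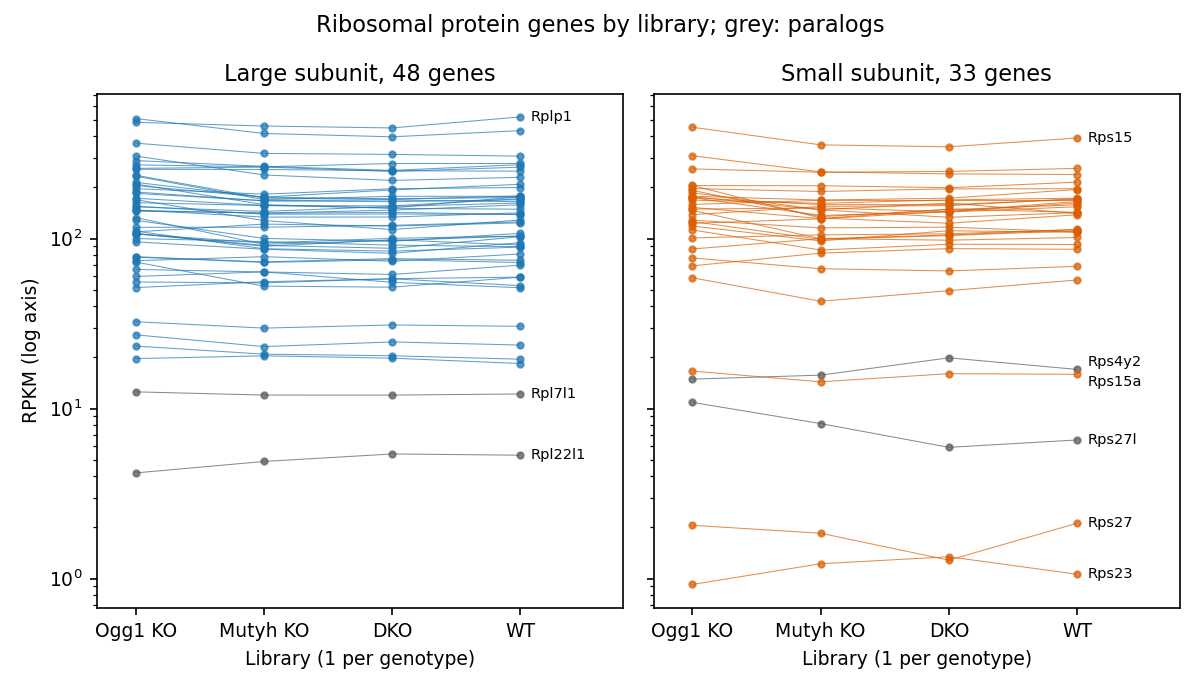
RPKM (log axis) of the 81 compared ribosomal protein genes in each library, 48 large-subunit genes on the left and 33 small-subunit genes on the right, with 1 point per library and grey lines for paralogs. Most genes lie above 100 RPKM with nearly flat lines, and Rps27 and Rps23 lie near 1 to 2 RPKM.

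The canonical genes Rps27 and Rps23 stood far below the rest. Rps27 had 2.06 RPKM in the library labelled Ogg1 KO, 1.85 in Mutyh KO, 1.28 in the library labelled DKO and 2.12 in WT, from 14 to 23 reads. Rps23, a protein of the decoding centre, had 0.924, 1.22, 1.35 and 1.06 RPKM in the same order, from 9 to 14 reads. Reads covered 32.5% to 44.4% of Rps27 and 10.7% to 23.6% of Rps23. Ribosomal protein genes have many near-identical processed pseudogenes, and the tables count unique reads only, so the levels of such members are uncertain. Whether reads shared with copies were left out of these genes was not tested. In 19 members, reads covered under 80% of the gene's length in at least 1 library although that library had at least 100 reads, and they included Rpl5 (52.3% to 52.8%), Rpl30 (44.4% to 53.6%) and Rpsa (63.3% to 74.0%). By contrast 45 members were covered over at least 90% of their length in every library. Over the 84 members, mean coverage and mean RPKM had a Spearman's rho of 0.55, as a description over genes that share the libraries.

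Each paralog except Rps27l stood below its canonical partner. Rpl7l1 had 12.02 to 12.56 RPKM against 144.7 to 162.0 for Rpl7, and Rpl22l1 had 4.19 to 5.41 RPKM against 23.2 to 27.2 for Rpl22. Rpl3l, known as a muscle paralog of Rpl3, had 3 to 7 reads per library, and Rpl39l, known from testis, had 1 or 2. Rpl10l, also known from testis, had 2 reads in the library labelled Ogg1 KO and was not listed in the other libraries. Rps4y2, which RefSeq names Rps4l and gives as a transcribed pseudogene, had 14.9 to 19.9 RPKM against 161.3 to 173.1 for Rps4x. Rps27l had 5.92 to 10.9 RPKM and thus lay above Rps27 in each library, with the uncertainty of Rps27 given above.

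As a whole, the members took 0.937% of all reads in the library labelled Ogg1 KO (95% interval 0.932% to 0.941%), 0.849% in Mutyh KO (0.844% to 0.853%), 0.853% in the library labelled DKO (0.848% to 0.857%) and 0.888% in WT (0.883% to 0.892%). The share was highest in the library labelled Ogg1 KO, lowest in Mutyh KO and nearly as low in the library labelled DKO. These exact (Clopper-Pearson) intervals, like those of the folds below, cover counting error only. No difference here has a replicate check, because a genotype has 1 library, and a comparison therefore describes libraries rather than genotypes. In bulk tissue, fewer cells of a type and less RNA per cell cannot be told apart.

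The summed reads per library total were 1.06-fold the WT value in the library labelled Ogg1 KO (1.05 to 1.06), 0.956-fold in Mutyh KO (0.949 to 0.963) and 0.961-fold in the library labelled DKO (0.954 to 0.967). Set against the single knockouts, the library labelled DKO had 0.910-fold the sum of the library labelled Ogg1 KO (0.904 to 0.916) and about the same sum as Mutyh KO, with a fold between 0.998 and 1.01. Both subunits had their highest share in the library labelled Ogg1 KO, with large-subunit shares of 0.588%, 0.533%, 0.530% and 0.551% and small-subunit shares of 0.349%, 0.316%, 0.322% and 0.336% in the libraries labelled Ogg1 KO, Mutyh KO, DKO and WT. Large-subunit reads were 1.69 times the small-subunit reads in the libraries labelled Ogg1 KO and Mutyh KO, and 1.64 times in those labelled DKO and WT. Ribosomal RNA genes took 0.351%, 1.37%, 1.48% and 0.733% of the reads in the same order, so the library with the highest ribosomal protein share had the lowest ribosomal RNA share. The library labelled Ogg1 KO had a median log2 ratio of (RPKM + 1) to WT of 0.060 over the members. With totals taken without ribosomal RNA it was 0.055. Any other part of ribosomal RNA in the result was not tested. The choroid plexus markers given above summed to 4825 RPM in the library labelled Ogg1 KO, 4826 in Mutyh KO, 2495 in the library labelled DKO and 502 in WT, and their part was not tested either.

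Among the members, the differences between libraries labelled Ogg1 KO and WT were the most varied of those with WT. A gene was compared by its log2 ratio of (RPKM + 1), which makes differences of genes with few reads look smaller, and was counted where this ratio was at least 0.322 in size (25% higher or 20% lower). Of the 81 members, 11 were at least 25% higher and 1 was at least 20% lower, against 6.87% and 3.57% of all compared genes. Among the 45 members covered over at least 90% of their length in every library, 4 were higher and 1 was lower, and over all members 3 were lower with a pseudocount of 0.1 RPKM or with either of 2 other scalings. None passed 2-fold, against 0.766% of all compared genes. The median log2 ratio was 0.06 over the members, 0.08 over the large and 0.04 over the small subunit, and 0.02 over all compared genes. The standard deviation of the members' log2 ratios was 0.21, against 0.11 for each of Mutyh KO and the library labelled DKO with WT. Over all compared genes it was 0.25 for the library labelled Ogg1 KO, 0.26 for Mutyh KO and 0.22 for the library labelled DKO. Over the genes of at least 50 RPKM it was 0.23, 0.21 and 0.17 in the same order. Counting intervals lay above 1 for 35 members and below 1 for 14, or 43.2% and 17.3% of them. Over all compared genes these shares were 21.3% and 16.2%, and over the genes of at least 50 RPKM, which have more reads, 29.9% and 39.6%. Short genes varied more in general: of the 939 compared genes of at most 1000 bases, 136 were at least 25% higher and 93 at least 20% lower in the library labelled Ogg1 KO. Among the 1307 of at least 50 RPKM, 51 were higher and 25 lower by these limits.

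The members that were higher in the library labelled Ogg1 KO came from both subunits. Rps27l, a paralog of Rps27, had 86 reads in the library labelled Ogg1 KO, 65 in Mutyh KO, 50 in the library labelled DKO and 55 in WT, or 1.66-fold the WT value in the library labelled Ogg1 KO (1.17 to 2.38). Rps28, a small protein of the small subunit near the mRNA exit channel, had 1148, 743, 736 and 821 reads in the same order. These were 205.6, 132.1, 123.3 and 138.2 RPKM, and the fold in the library labelled Ogg1 KO was 1.49 (1.36 to 1.63). For both genes the library labelled Ogg1 KO stood above all others, and the library labelled DKO was the lowest.

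Rpl38, whose loss in mice alters translation of Hox mRNAs, had 1382, 1052, 1062 and 1045 reads in the libraries labelled Ogg1 KO, Mutyh KO, DKO and WT. Its fold in the library labelled Ogg1 KO was 1.41 (1.30 to 1.53), and the other 3 libraries lay close together. Rpl17, a protein of the peptide exit tunnel, was 1.33-fold (1.27 to 1.40), with 306.2, 237.0, 220.1 and 229.6 RPKM in the same order. Rpl11, which with Rpl5 and 5S ribosomal RNA can bind Mdm2 and restrain it from marking p53 for degradation, was 1.32-fold, with 236.1, 173.3, 170.2 and 178.4 RPKM. Its partner Rpl5 was 1.08-fold (1.03 to 1.14), with coverage of about the same part of the gene in each library.

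Rps12 and Rpl24 were 1.32-fold the WT value and Rpl35 1.31-fold in the library labelled Ogg1 KO. Rps25, a small-subunit protein needed by some viral internal ribosome entry sites, was 1.30-fold (1.21 to 1.39), and Rps24, a gene mutated in human Diamond-Blackfan anaemia, was 1.29-fold (1.23 to 1.35). Both have coverage under 80% in at least 1 library. Rpl10a, a protein of the L1 stalk, was 1.28-fold (1.20 to 1.37). At the threshold, Rpl10a lay just inside with a log2 ratio of 0.36, and Rps26 just outside with 0.31. Fau, which encodes a fusion with the small-subunit protein eS30 and is not a member by symbol, had 2159, 1442, 1459 and 1563 reads, and was 1.47-fold in the library labelled Ogg1 KO (1.38 to 1.57).

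**Figure D2:**
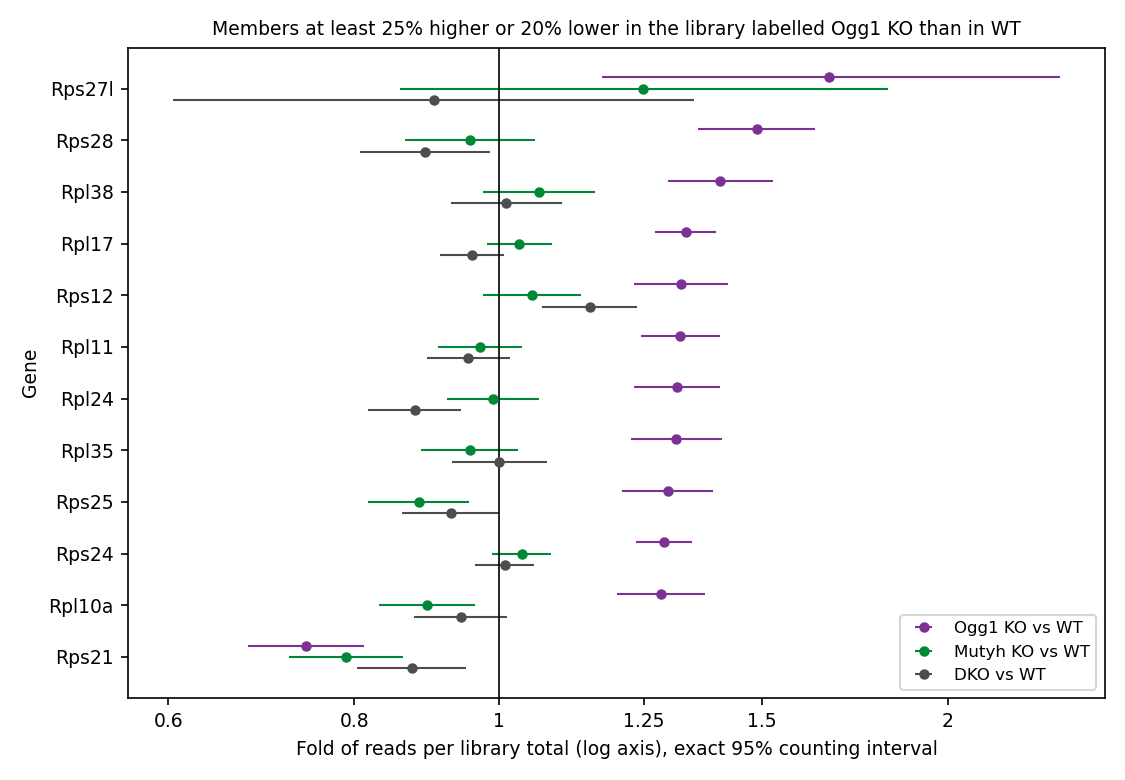
Fold of reads per library total against WT (log axis) with exact 95% counting intervals for the 12 members counted as higher or lower in the library labelled Ogg1 KO, shown for the libraries labelled Ogg1 KO, Mutyh KO and DKO. The folds of the library labelled Ogg1 KO lie at 1.28 to 1.66 for 11 genes, and Rps21 lies below 1 in all 3 libraries.

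Rps21, a small-subunit protein, was the 1 member at least 20% lower in the library labelled Ogg1 KO. It had 829 reads in the library labelled Ogg1 KO, 888 in Mutyh KO, 1043 in the library labelled DKO and 1188 in WT. WT was the highest and the library labelled Ogg1 KO the lowest, at 0.743-fold (0.679 to 0.812). Rpsa, also known as the laminin receptor precursor, was 0.804-fold (0.773 to 0.836), and Rps27a, which encodes ubiquitin fused to a small-subunit protein, was 0.799-fold (0.734 to 0.869). On the log2 (RPKM + 1) scale both fell just short of the limit of 20% lower. Rps3, a small-subunit protein that in humans has also been reported to bind 8-oxoguanine in DNA, was 1.12-fold (1.06 to 1.19). Rplp0, the base of the stalk, was 0.929-fold (0.882 to 0.978), and Rps6, the substrate of the S6 kinases, was 0.947-fold (0.906 to 0.990).

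The log2 ratios of the members, with their sign, went weakly with gene length. The 30 compared members of at most 600 bases had a median log2 ratio of 0.15 in the library labelled Ogg1 KO against WT, and the 51 longer ones 0.05. Spearman's rho between length and log2 ratio was -0.21 over the 81 members and 0.04 over all compared genes, as a description with no test. Members were split by the pyrimidine run and by CCGGAAG, and not by the other motifs. The median was 0.04 over the 19 compared members with a pyrimidine run as counted above, and 0.08 over the 41 without it, Rpl38 among them. It was 0.04 over the 25 with CCGGAAG and 0.08 over the 35 without it. Liver and heart muscle transcripts also set this library apart, at a summed 9.69 and 4.88 RPM against 51.8 to 53.9 and 27.2 to 32.1 in the other 3 libraries. Their part in the result was not tested.

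In Mutyh KO, the members lay slightly below WT. None was at least 25% higher and 2 were at least 20% lower, against 8.24% and 1.92% of all compared genes, and none passed 2-fold, against 0.834%. Abundant genes passed these limits seldom: of the 1307 of at least 50 RPKM, 22 were at least 25% higher and 13 at least 20% lower. The median log2 ratio was -0.07 over the members, -0.03 over the large and -0.10 over the small subunit, and 0.01 over all compared genes. Over the 1307 compared genes of at least 50 RPKM the median was also -0.07. Of the 81 members, 60 (74.1%) lay within 1.1-fold of WT, against 58.5% of all compared genes and 66.5% of the genes of at least 50 RPKM. Counting intervals lay above 1 for 2 members and below 1 for 29, against 19.8% and 16.4% of all compared genes and 13.7% and 52.6% of those of at least 50 RPKM. Rps19, the gene most often mutated in human Diamond-Blackfan anaemia, had 630 reads in the library labelled Ogg1 KO, 462 in Mutyh KO, 566 in the library labelled DKO and 651 in WT. Mutyh KO was the lowest, at 0.750-fold (0.664 to 0.846), and its reads covered 72.3% to 89.5% of the gene. Rps21 was the other, at 0.790-fold (0.723 to 0.862). Rpl21, of the large subunit, had the highest log2 ratio, at 1.24-fold (1.16 to 1.32), with coverage of 53.1% to 63.1%.

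In the library labelled DKO, the members also lay slightly below WT, which is the same library in both comparisons. None of the members was at least 25% higher and 1 was at least 20% lower, against 5.87% and 2.55% of all compared genes, and none passed 2-fold, against 0.592%. That 1 was Rps27, with 14 reads in the library labelled DKO and 23 in WT, or 0.606-fold with an interval that includes 1 (0.288 to 1.23). Among the 1307 compared genes of at least 50 RPKM, 18 were at least 25% higher and 16 at least 20% lower. The median log2 ratio was -0.06 over the members, -0.04 over the large and -0.09 over the small subunit, and -0.06 over the genes of at least 50 RPKM. Counting intervals lay above 1 for 2 members and below 1 for 26, or 2.47% and 32.1% of them, against 16.2% and 17.2% of all compared genes and 13.4% and 46.3% of the genes of at least 50 RPKM. Those above were Rps12 (1.15-fold, 1.07 to 1.24) and Rpl21 (1.08-fold, 1.01 to 1.15).

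**Figure D3:**
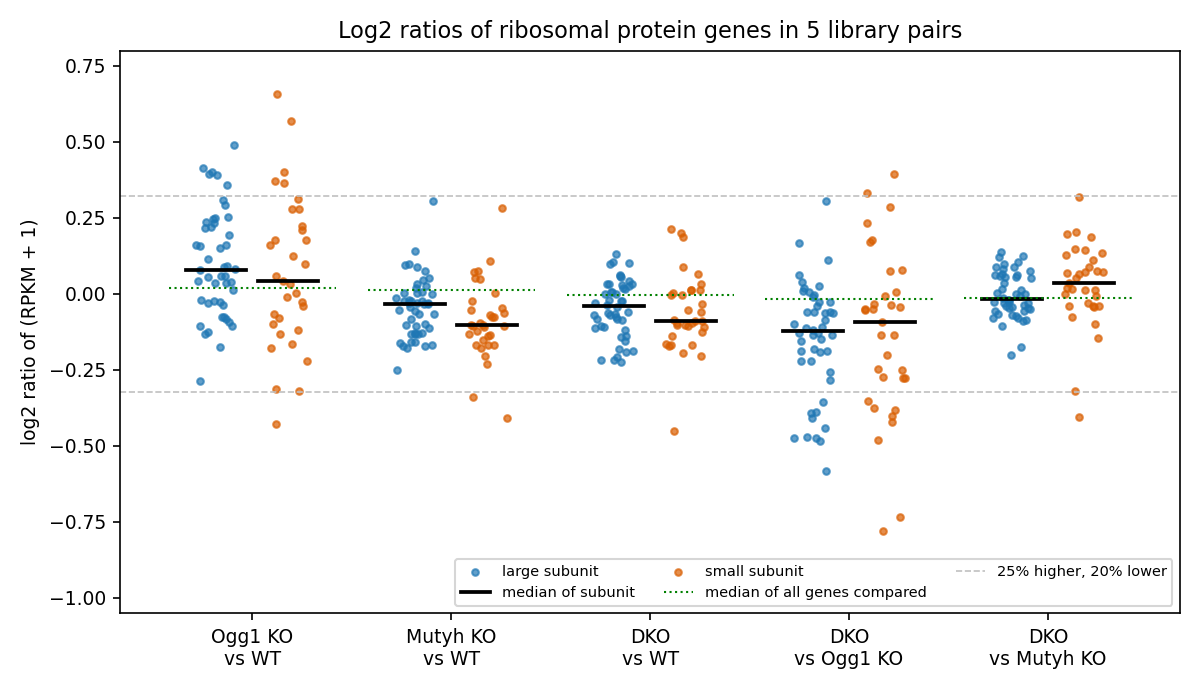
Log2 ratio of (RPKM + 1) of each compared ribosomal protein gene in the 5 library pairs, by subunit, with the subunit median (black bar), the median of all compared genes (dotted) and the limits of 25% higher and 20% lower (dashed). Points spread most in the pairs that include the library labelled Ogg1 KO, with standard deviations of 0.21 and 0.23 against 0.11 in each of the other 3 pairs. Over all compared genes, not shown as points, they were 0.25 and 0.22 against 0.19 to 0.26.

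Against the library labelled Ogg1 KO, the library labelled DKO had most members lower. Of the 81 members, 18 were at least 20% lower and 2 at least 25% higher, against 4.88% and 3.66% of all compared genes, and none passed 2-fold, against 0.387%. The median log2 ratio was -0.12 over the members, and -0.02 over all compared genes. Counting intervals lay above 1 for 7 members and below 1 for 42, against 14.1% and 19.8% of all compared genes and 23.0% and 41.4% of those of at least 50 RPKM. Among the 45 members with coverage of at least 90% in every library, 7 were at least 20% lower. The lowest ratios were those of Rps27l (0.544-fold, 0.376 to 0.779), Rps28 (0.600-fold, 0.546 to 0.658) and Rpl24 (0.667-fold, 0.622 to 0.714). This comparison and that of the library labelled Ogg1 KO with WT share a library, so their values are not independent. The 2 that were higher were Rps4y2, at 1.33-fold (1.13 to 1.58), and Rps27a, at 1.26-fold (1.16 to 1.37). Short genes are again part of the background: of the 939 compared genes of at most 1000 bases, 177 were at least 20% lower and 100 at least 25% higher. Among the 1307 of at least 50 RPKM, 70 were lower and 21 higher by these limits.

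Against Mutyh KO, the library labelled DKO had few members past the limits. None of the members was at least 25% higher and 1 was at least 20% lower, against 1.22% and 4.14% of all compared genes, and none passed 2-fold, against 0.303%. The 1 lower member was Rps27l, at 0.725-fold with an interval that includes 1 (0.491 to 1.06). Among the 1307 compared genes of at least 50 RPKM, 3 were at least 25% higher and 11 at least 20% lower. The median log2 ratio was 0.00 over the members, and 69 of the 81 (85.2%) lay within 1.1-fold, against 71.6% of all compared genes and 86.8% of the genes of at least 50 RPKM. Counting intervals lay above 1 for 12 members and below 1 for 5, or 14.8% and 6.17% of them. These shares were 9.79% and 13.4% over all compared genes, and 28.2% and 19.9% over the genes of at least 50 RPKM. Across the 81 members, log2 (RPKM + 1) in the libraries labelled DKO, Mutyh KO and WT had a Pearson's r of 0.997 in each pair, and 0.989 to 0.992 between the library labelled Ogg1 KO and the others, as a description over genes that share length and annotation.

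The loss of Ogg1 can be set side by side in 2 backgrounds that share no library, without Mutyh (DKO against Mutyh KO) and with it (Ogg1 KO against WT). Over the 81 members the log2 ratios of the 2 comparisons had a Pearson's r of -0.33 and a Spearman's rho of -0.21, and over all compared genes -0.19 and -0.11. The loss of Mutyh, without Ogg1 (DKO against Ogg1 KO) and with it (Mutyh KO against WT), had r of -0.10 and rho of -0.01 over the members, and -0.01 and 0.05 over all compared genes. Rps28 had a log2 ratio of -0.10 in the library labelled DKO against Mutyh KO, and of 0.57 in the library labelled Ogg1 KO against WT. Rps21 had 0.14 and -0.43 in these comparisons. For the loss of Ogg1, the standard deviation of the members' log2 ratios was 0.11 without Mutyh and 0.21 with it. Over all compared genes it was 0.19 and 0.25.

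**Figure D4:**
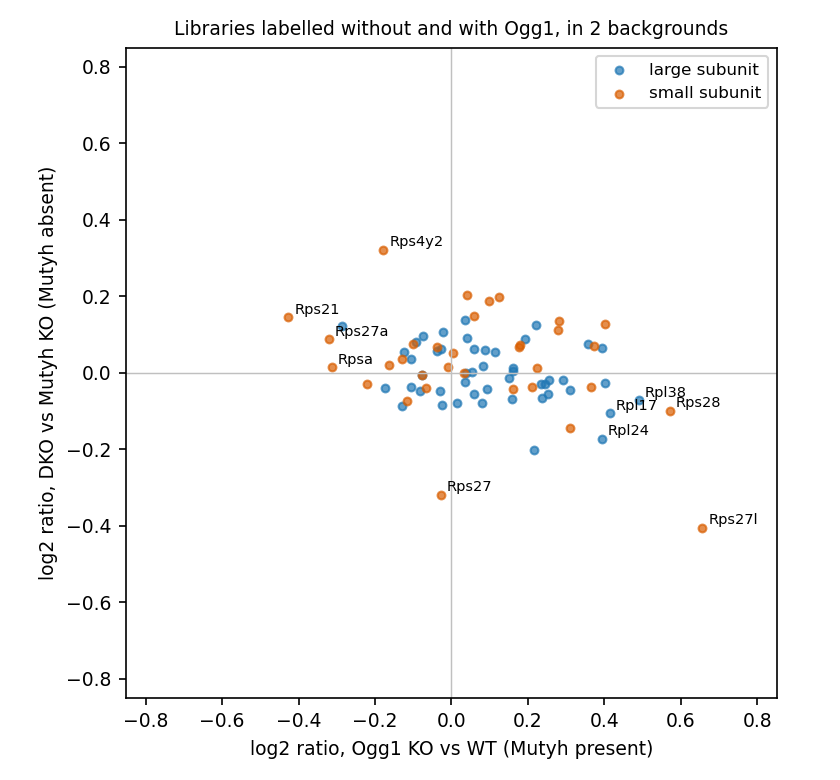
Log2 ratio of each compared ribosomal protein gene in the library labelled DKO against Mutyh KO (vertical axis) and in the library labelled Ogg1 KO against WT (horizontal axis), by subunit. Points spread further along the horizontal axis, with a standard deviation of 0.21, than along the vertical axis, with 0.11, and have a Pearson's r of -0.33.

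Genes that work with ribosomal proteins were described from lists of their own. Over all compared genes, 6.87% were at least 25% higher and 3.57% at least 20% lower in the library labelled Ogg1 KO than in WT. These shares were 8.24% and 1.92% in Mutyh KO, and 5.87% and 2.55% in the library labelled DKO. The list counts below stand beside these shares, and no count of a few genes is read as a trait of its list. Of 22 other TOP mRNA genes, which encode translation factors and related proteins or, for Gas5 and Snhg1, host small nucleolar RNAs, 2 were at least 25% higher and none was at least 20% lower in the library labelled Ogg1 KO, none passed either limit in Mutyh KO, and 1 was higher and none lower in the library labelled DKO, each against WT. Their median log2 ratios were 0.11, 0.02 and -0.02 in that order. Fau, described above, was 1 of the 2. The 1 gene in the library labelled DKO was Snhg1, with 57, 53, 65 and 48 reads in the libraries labelled Ogg1 KO, Mutyh KO, DKO and WT and an interval that includes 1. Gas5 was 1.09-fold the WT value in the library labelled DKO, and Eef1d, an elongation factor subunit, 0.878-fold.

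The 76 mitochondrial ribosomal protein genes, whose products form the separate ribosome of mitochondria, had median log2 ratios to WT of 0.02 in the library labelled Ogg1 KO, -0.06 in Mutyh KO and -0.04 in the library labelled DKO. Of them 3 were higher and 1 lower in the library labelled Ogg1 KO, 1 was higher in Mutyh KO and 3 were lower in the library labelled DKO. The last were Mrpl34 (0.696-fold), Mrpl19 (0.729-fold) and Mrpl36 (0.766-fold).

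Among 45 initiation factor genes none passed the limits in the libraries labelled Ogg1 KO and DKO, and 1 was higher in Mutyh KO. The log2 ratios of largest size in the library labelled DKO were those of Eif2b2 (0.794-fold), Eif2b4 (0.873-fold) and Eif1a (1.13-fold). None of 14 elongation and termination factor genes passed them in any of the 3, and Eef1e1 was 0.832-fold and Eef2k, the kinase that inhibits elongation, 1.14-fold in the library labelled DKO. Of 40 ribosome biogenesis genes 1 was higher in the library labelled Ogg1 KO, 1 lower in Mutyh KO (Rrp9, 0.774-fold) and 1 lower in the library labelled DKO (Nle1, 0.668-fold), where Tsr1 was 0.789-fold. Of 14 RNA polymerase I genes, which transcribe ribosomal RNA, 2 were higher in the library labelled Ogg1 KO and none passed in the other 2. These were Taf1d, a subunit of its promoter selectivity factor, at 1.60-fold (1.33 to 1.94), and Polr1e, a polymerase subunit, at 1.50-fold (1.11 to 2.03). Taf1c was 0.819-fold in the library labelled DKO.

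Of 19 mTORC1 signalling genes 1 was higher in each single knockout, and 1 was lower in the library labelled DKO, Eif4ebp2, a repressor of initiation, at 0.773-fold (0.688 to 0.869). Mlst8, a subunit of the complex, was 0.791-fold there, and Deptor, its inhibitor, 1.30-fold. Of 11 ribosome quality control genes 1 was higher in each of the libraries labelled Ogg1 KO and DKO, Pelo, which rescues stalled ribosomes, at 1.33-fold (1.08 to 1.65) and 1.31-fold (1.06 to 1.61). Zfp598 and Upf1 were 0.877-fold and 0.890-fold in the library labelled DKO. Of 10 genes of the ribosomal stress and p53 list, 1 was higher and 1 lower in the library labelled Ogg1 KO, and 1 was higher in each of Mutyh KO and the library labelled DKO. The higher one was Mdm4, a p53 inhibitor, with 690, 642, 696 and 498 reads in the libraries labelled Ogg1 KO, Mutyh KO, DKO and WT. It was lowest in WT, and its folds were 1.47 (1.31 to 1.66), 1.36 (1.21 to 1.53) and 1.39 (1.24 to 1.56). Cdkn1a, a p53 target that arrests the cell cycle, had 171, 169, 118 and 155 reads in the same order. Bax, another p53 target, was 0.815-fold in the library labelled DKO.

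The 3 ribosomal RNA genes compared did not share 1 pattern. Rn18s, the RNA of the small subunit, had 10434 reads in the library labelled Ogg1 KO, 68029 in Mutyh KO, 71723 in the library labelled DKO and 37564 in WT. Rn28s1, the RNA of the large subunit, had 49314, 166015, 197531 and 95108 reads in the same order. Both were lowest in the library labelled Ogg1 KO, and per library total Rn18s was about equal in the library labelled DKO and in Mutyh KO (0.993-fold, with an interval that includes 1). Rs5-8s1, for 5.8S RNA, went otherwise, with 22.7 RPKM in the library labelled Ogg1 KO, 43.2 in Mutyh KO, 62.2 in the library labelled DKO and 14.7 in WT, from 42 to 179 reads. It was lowest in WT and 1.55-fold in the library labelled Ogg1 KO (1.03 to 2.35). How library preparation treated ribosomal RNA was not stated beyond standard Illumina protocols, so these reads are not a measure of ribosome content.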

How the data were processed

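RNA was sequenced from hippocampus of 4 genotypes, 1 library each. The build was mm9, per the submitters' processing notes, while nothing on aligner, counter, annotation or strand is given in the sources used here. The authors deposited, per the file headers, counts of unique reads for each gene. The authors' coverage is a percent of gene length, as its name in the file headers reads. The authors' RPKM values equal reads per kilobase and library total, per the file headers, and lengths in bases stand beside them as the authors deposited them. A gene missing from a table was given 0.

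Members were found by symbol. Genes with a mean of at least 1 RPKM were compared as log2 ratios after adding 1 RPKM. A fold is the ratio of reads over library totals, and its 95% interval is the exact conditional (binomial) one. With 1 library per genotype there is no test, and a count of genes at least 25% higher or 20% lower stands beside that over all compared genes. The calculation was tested on simulated data. Named are members past these limits against WT (at most 10 in each direction in each comparison), the 5 highest and 5 lowest by RPKM, paralog pairs, 6 members with known other roles, members under 80% coverage, the 5 of widest range, and of each other list the 3 of largest log2 ratio in DKO. Rps27a was chosen after its values were seen. The members and lists were chosen with earlier results of these data known. Python 3.11.15, pandas 2.3.3 and scipy 1.17.1 were used. Alternatives were another pseudocount, filters, scalings, canonical members alone and well-covered members alone.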

Additional observations from a re-analysis of the deposited data

Results flagged for a closer look

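Rpl17, Rps21 and Rpl24 stood out because the loss of Ogg1 went with opposite directions in the backgrounds without and with Mutyh, each with a counting interval that excludes 1 and at least 1 of the ratios past the limit of 0.322 in size. Other members with smaller ratios, such as Rps26 and Rpl21, had opposite directions too. Rpl17 had a log2 ratio of -0.11 in the library labelled DKO against Mutyh KO, and of 0.41 in the library labelled Ogg1 KO against WT. Rps21 had 0.14 and -0.43 in those comparisons. Rpl24 had -0.17 and 0.39 in them. For the loss of Mutyh, Rps21 had 0.23 in the library labelled DKO against that labelled Ogg1 KO, and -0.34 in Mutyh KO against WT. These come from the same values as its ratios for the loss of Ogg1 and are not a second observation. How many of all compared genes stood out in this way was not counted. Over all compared genes, the ratios for the loss of Ogg1 in the 2 backgrounds had a Pearson's r of -0.19. The differences between backgrounds were not tested, since each rests on 1 library per genotype.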

How the results depend on the processing

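The 25 medians and counts were computed under 8 alternatives, which gave 200 values, and 180 of them stayed close to those reported. For a median, close meant a log2 shift smaller than the reach of the median member's counting interval to either side, 0.097 to 0.104 by comparison. Most reported medians were themselves smaller than this, so the limit could not separate them from 0. For a count, close was judged by the ratio of the larger count to the smaller. Of the 120 medians 1 changed sign, and the largest shift of a median was 0.04 on the log2 scale. With upper-quartile scaling, the members' median in the library labelled Ogg1 KO against WT went from 0.060 to 0.032. Over the small subunit it went from 0.042 to 0.013. In Mutyh KO against WT, the members' median went the other way from 0, from -0.065 to -0.077. The 20 values that did not stay close were counts of members at least 25% higher or 20% lower, most of them small. Over the 45 members with coverage of at least 90% in every library, 4 instead of 11 were higher in the library labelled Ogg1 KO than in WT, 1 was lower in Mutyh KO and 0 in the library labelled DKO. In the same 45, 1 was higher and 7 instead of 18 were lower in the library labelled DKO than in that labelled Ogg1 KO, and 0 were lower than in Mutyh KO. Fewer members entered these counts. With a pseudocount of 0.1 RPKM, 3 were lower in the library labelled Ogg1 KO than in WT, 4 were higher in the library labelled DKO than in that labelled Ogg1 KO, and 1 was higher and 2 lower than in Mutyh KO. With median-of-ratios or upper-quartile scaling, 11 were higher and 3 lower in the library labelled Ogg1 KO than in WT, against 11 and 1 as reported, and with the total taken without ribosomal RNA 11 and 2. Under each of these 3 scalings 1 was higher in the library labelled DKO than in Mutyh KO. With a minimum mean of 10 RPKM, 0 were lower in the library labelled DKO than in WT or Mutyh KO. With canonical members alone, 1 was higher in the library labelled DKO than in that labelled Ogg1 KO and 0 were lower than in Mutyh KO. Scaling moved the median of all compared genes by at most 0.03. No paired analysis was possible because each genotype has 1 library, and for the same reason no library could be left out. Depth limits single members. The interval of the median member reached 0.097 on the log2 scale to either side in the library labelled Ogg1 KO against WT. Rps27, Rps23 and Rps27l rest on 9 to 86 reads.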
